A study of Homo sapiens with 6 samples.

Results

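The regions described here were ATAC-seq peaks that the vehicle list of Nthy-ORI thyroid cells shared with the list for 24 h of T3 but not with the list for 6 h of T3. They were chosen by presence and absence in the 3 deposited peak lists. A vehicle peak on chromosomes 1 to 22 or X was kept when a 24 h peak overlapped it by at least 50% of the shorter peak and no 6 h peak did so. Of 6811 vehicle peaks, 783 met this rule, which is 11.5% of them. Absence at 6 h alone held for 4641 vehicle peaks, or 68.1%, and presence at 24 h alone for 2226, or 32.7%. These counts state the rule itself and carry no test. The number depends on the lists: it was between 105 and 111 for lists of equal length, 272 when the IDR (irreproducible discovery rate) was limited to 0.01, and 301 when both summits of each peak had to be 100 bp or less apart.

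Nthy-ORI is an immortalised human cell line from normal thyroid follicular epithelium, and ATAC-seq marks open DNA by where the Tn5 transposase inserts. All 3 groups were grown for 24 h in phenol-red free medium with charcoal-stripped serum and comprised 2 samples each: vehicle (NaOH), labelled 6 h, T3 (triiodothyronine) at 10 nM for 6 h, and T3 at 10 nM for 24 h. No vehicle group labelled 24 h was used here, so at the late time the effects of hormone and of time cannot be told apart. Whether the paired samples were separate cultures is not in the labels, and each group has 1 list made from both. On the chromosomes used, the lists held 6811 peaks in vehicle, 12112 at 6 h and 60299 at 24 h. The lists give no read counts, so depth is unknown, and absence from a list does not show closed chromatin. Of 16 thyroid lineage genes looked up as a check of the labelled cell type, 9 had a peak within 1 kb of a gene boundary at 24 h. At 6 h 1 had such a peak, and in vehicle 0. Over all protein-coding genes the shares were 60.8% at 24 h, 10.8% at 6 h and 1.34% in vehicle. The counts thus did not stand above those of other genes and do not bear on the cell type.

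Nuclear receptors for T3 bind DNA mostly as partners of the retinoid X receptor, at repeats of the letters AGGTCA. Without hormone they can hold corepressor complexes at their sites, and with hormone they exchange these for coactivators and chromatin remodellers. Open chromatin is found at active gene starts and at distal enhancers. Promoters of widely expressed genes are commonly rich in G and C and hold recurrent elements. These include the GC box, bound by SP1-family factors, the CCAAT box, bound by NF-Y, and the ETS element CCGGAAG.

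The promoters below show what lay under the peaks at gene starts. IMMT, RNF34 and ICE1 had the strongest vehicle peaks among such regions, SLC46A3, SND1 and DNM1L were among the strongest at 24 h, and SUCLA2 was added after its values were seen because its window holds an AGGTCA. Each is the RefSeq window from 250 bases before to 50 bases after an annotated start on GRCh38.p14, printed 5′ to 3′ on the strand of the gene. Each window lay wholly inside both the vehicle peak and its 24 h partner. Capitals mark the GC box GGGCGG, the CCAAT box, the ETS element CCGGAAG and the receptor letters AGGTCA on either strand, and neighbouring or overlapping matches run together. The windows are IMMT at chr2:86195413-86195712, minus strand, RNF34 at chr12:121399868-121400167, plus strand, ICE1 at chr5:5422427-5422726, plus strand, SLC46A3 at chr13:28718921-28719220, minus strand, SND1 at chr7:127651944-127652243, plus strand, DNM1L at chr12:32679051-32679350, plus strand, and SUCLA2 at chr13:48001224-48001523, minus strand.
IMMT: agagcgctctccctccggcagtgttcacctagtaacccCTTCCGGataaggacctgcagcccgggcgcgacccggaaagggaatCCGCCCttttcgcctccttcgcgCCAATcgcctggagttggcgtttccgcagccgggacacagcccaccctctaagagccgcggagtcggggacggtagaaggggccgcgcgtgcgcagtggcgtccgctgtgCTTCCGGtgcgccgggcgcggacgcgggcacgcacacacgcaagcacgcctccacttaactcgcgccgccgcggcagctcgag
RNF34: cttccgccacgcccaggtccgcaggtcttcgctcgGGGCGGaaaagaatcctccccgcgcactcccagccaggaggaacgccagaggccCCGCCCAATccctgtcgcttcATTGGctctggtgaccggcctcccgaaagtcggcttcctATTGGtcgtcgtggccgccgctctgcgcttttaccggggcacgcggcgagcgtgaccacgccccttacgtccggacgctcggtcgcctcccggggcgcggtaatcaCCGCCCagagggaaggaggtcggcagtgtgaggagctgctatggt
ICE1: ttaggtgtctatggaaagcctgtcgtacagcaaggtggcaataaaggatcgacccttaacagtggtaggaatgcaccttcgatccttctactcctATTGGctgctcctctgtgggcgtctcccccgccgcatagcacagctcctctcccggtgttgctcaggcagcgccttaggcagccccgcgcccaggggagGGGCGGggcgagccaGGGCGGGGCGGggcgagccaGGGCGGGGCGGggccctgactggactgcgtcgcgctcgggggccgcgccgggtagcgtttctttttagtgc
SLC46A3: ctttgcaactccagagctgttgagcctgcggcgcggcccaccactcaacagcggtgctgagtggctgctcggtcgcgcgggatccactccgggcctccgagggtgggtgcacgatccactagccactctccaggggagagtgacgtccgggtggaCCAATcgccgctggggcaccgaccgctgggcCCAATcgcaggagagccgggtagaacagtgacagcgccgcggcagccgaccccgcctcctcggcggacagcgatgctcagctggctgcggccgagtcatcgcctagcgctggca
SND1: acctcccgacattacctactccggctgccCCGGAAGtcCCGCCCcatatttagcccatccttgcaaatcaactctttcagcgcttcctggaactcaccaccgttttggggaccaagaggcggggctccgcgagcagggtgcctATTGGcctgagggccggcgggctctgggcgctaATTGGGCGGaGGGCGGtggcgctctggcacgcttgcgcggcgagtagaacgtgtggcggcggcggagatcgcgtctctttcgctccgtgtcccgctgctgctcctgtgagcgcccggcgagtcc
DNM1L: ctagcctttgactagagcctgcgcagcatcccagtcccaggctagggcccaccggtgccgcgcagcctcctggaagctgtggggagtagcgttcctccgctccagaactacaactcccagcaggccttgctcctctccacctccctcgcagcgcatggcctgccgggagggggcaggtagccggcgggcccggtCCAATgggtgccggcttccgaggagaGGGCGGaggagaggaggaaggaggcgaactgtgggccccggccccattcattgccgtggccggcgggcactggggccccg
SUCLA2: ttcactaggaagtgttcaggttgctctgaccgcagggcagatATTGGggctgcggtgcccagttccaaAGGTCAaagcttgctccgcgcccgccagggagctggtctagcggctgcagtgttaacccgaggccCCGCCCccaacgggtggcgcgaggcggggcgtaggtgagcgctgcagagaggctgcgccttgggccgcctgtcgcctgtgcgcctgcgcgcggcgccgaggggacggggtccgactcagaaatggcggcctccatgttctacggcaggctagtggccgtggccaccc

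These windows were GC-rich, between 65.7% in ICE1 and 70.0% in DNM1L. ICE1 held 5 GC boxes and 1 CCAAT box, RNF34 held 3 of each, and SND1 held 3 GC boxes, 2 CCAAT boxes and 1 ETS element. IMMT held 2 ETS elements beside 1 GC box and 1 CCAAT box. SLC46A3 held 2 CCAAT boxes and no GC box.

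Without regard to peak strength, the regions lay at gene ends more often than the other classes of vehicle peaks did. Among peaks of like vehicle strength this did not always hold against peaks of all 3 lists, as given below. A gene end means that the mean of both replicate summits lay within 1 kb of a protein-coding gene's boundary. Of the regions, 12.1% lay there (95 of 783, exact Clopper-Pearson 95% interval 9.93 to 14.6), against 5.61% (4.48 to 6.93) of the 1443 vehicle peaks present in all 3 lists. It was 0.825% (0.303 to 1.79) of the 727 shared with 6 h alone and 1.56% (1.19 to 1.997) of the 3858 in the vehicle list alone. All intervals cover counting error only. The whole 24 h list had 19.1% and the whole 6 h list 14.9%, both above the interval of the regions. With the lists brought to equal length, which keeps the strongest 24 h peaks, the share was 47.2% (50 of 106), 42.9% (45 of 105) or 45.1% (50 of 111) of the regions, depending on whether peaks were ranked by summed signal or by the first or second replicate column. In those cut lists it was 10.8%, 10.2% and 11.8% of peaks present in all 3 lists, and 39.2%, 38.9% and 38.0% of the whole 24 h list. The order of regions against peaks of all 3 lists was thus the same at equal length. Against the whole 24 h list the regions stood higher there, but within counting error. Their intervals, 37.4 to 57.1, 33.2 to 52.9 and 35.6 to 54.8, each held the value of that list. Of the remaining regions, 253 (32.3%) lay inside a gene and 435 (55.6%) outside genes.

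**Figure D1:**
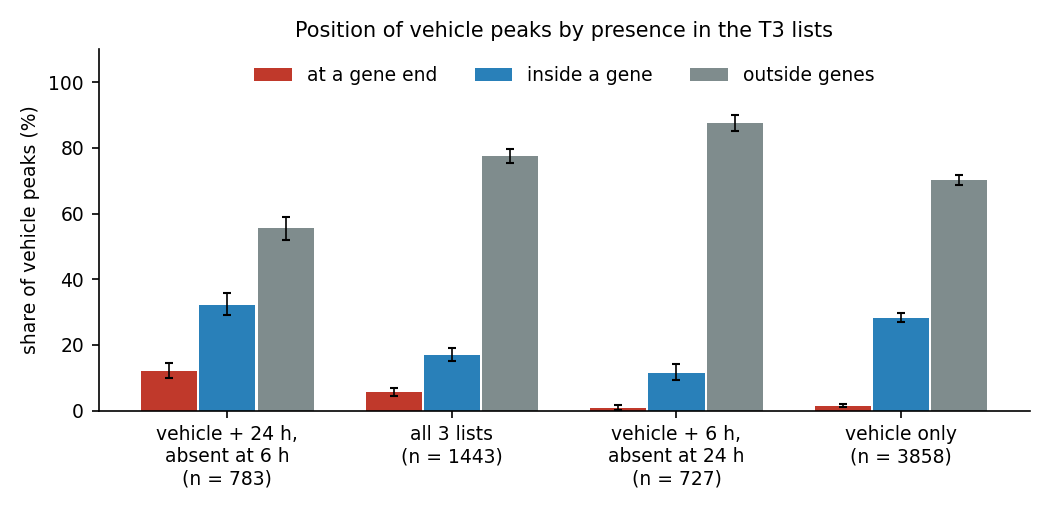
Share of vehicle peaks, in percent, at a gene end (red), inside a gene (blue) or outside genes (grey), for 4 classes of vehicle peaks by presence in the T3 lists. Bars are shares and whiskers are exact 95% intervals for counting error. The gene-end bar stands at 12.1% for peaks present in vehicle and at 24 h but absent at 6 h, and at 5.61% or less in the other 3 classes. The classes are not matched for strength in the vehicle list.

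Position also separated the vehicle peaks that were in the 24 h list from those that were not. Of the vehicle peaks absent at 6 h, 61.3% (95 of 155, 53.1 to 69.0) were in the 24 h list when they lay at a gene end, against 15.3% (688 of 4486, 14.3 to 16.4) when they did not. For vehicle peaks present at 6 h the shares were 93.1% (81 of 87) at gene ends and 65.4% (1362 of 2083) elsewhere. The 24 h list covered gene ends widely: 60.8% of 19974 protein-coding genes had a 24 h peak at an end, against 10.8% with a 6 h peak and 1.34% with a vehicle peak. Of the 169 genes with a vehicle peak and no 6 h peak at an end, 132 had a 24 h peak there, or 78.1% (71.1 to 84.1). None of the 95 regions at gene ends belonged to a gene with a 6 h peak at either end. For the end where the region lay, the rule largely sets this, so it is no finding about the regions.

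At gene ends the 24 h partners had higher percentiles in their list than the vehicle peaks had in theirs, as also held for gene-end peaks present in all 3 lists. Signal has no stated normalisation, so a peak was placed by its percentile within its own list, where 100 is the strongest. Signals of different lists are not comparable. The full lists held 7103 peaks in vehicle and 60661 at 24 h, so more peaks stand above a given percentile at 24 h than in vehicle. The 24 h percentile of the 95 regions at gene ends had a median of 81.8 (order-statistic 95% interval 75.5 to 85.0), and their vehicle percentile one of 35.1 (30.1 to 43.01). For the 81 gene-end peaks present in all 3 lists the medians were 88.6 (85.3 to 92.4) at 24 h and 53.8 (45.5 to 60.4) in vehicle, both above those of the regions. Away from gene ends the medians of the regions were 33.7 (30.7 to 37.4) at 24 h and 45.5 (41.7 to 49.4) in vehicle. The 24 h list as a whole also had its strong peaks at gene ends, with a median percentile of 72.2 for its 11541 peaks there. Over all positions the medians were 38.5 at 24 h and 43.5 in vehicle for the 783 regions, while vehicle peaks present in all 3 lists stood at 59.9 at 24 h and 79.9 in vehicle. Vehicle peaks in no T3 list had a median vehicle percentile of 38.9, and those shared with 6 h alone one of 63.9. Across the 783 regions, which share their libraries and are not replicates, 24 h and vehicle signal had a Spearman rho of -0.07.

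**Figure D2:**
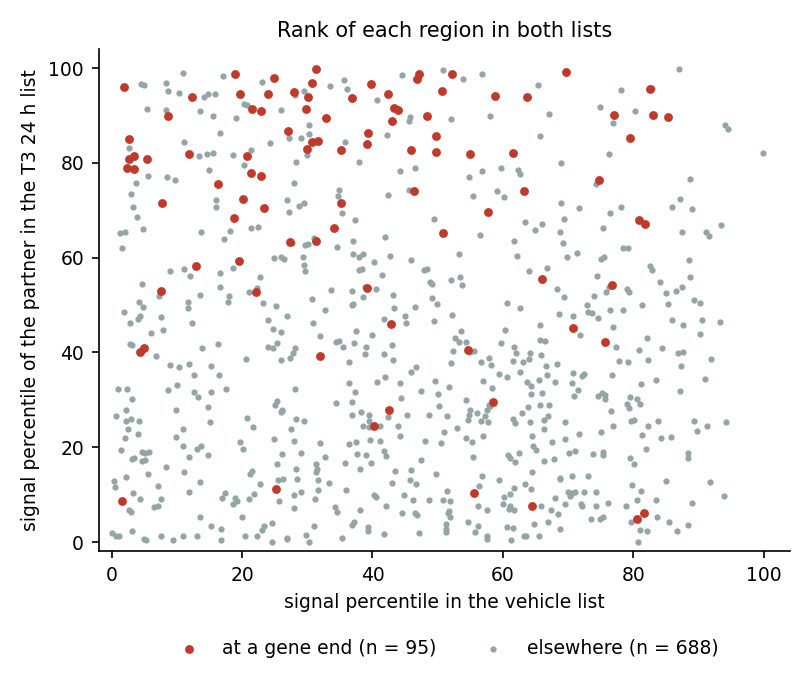
Signal percentile of each region in the T3 24 h list (vertical axis) against its percentile in the vehicle list (horizontal axis), with 1 point per region. Red points lie at gene ends (95) and grey points elsewhere (688); the red points gather at the top, with a median 24 h percentile of 81.8 against 33.7 for the grey.

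The gene-end share grew with the strength of the 24 h partner. In 5 equal classes of the 24 h list by signal, weakest to strongest, 2.75%, 2.13%, 8.33%, 19.05% and 44.8% of the regions lay at a gene end. The whole 24 h list gave 8.28%, 10.6%, 15.3%, 24.7% and 36.7% in those classes. The regions thus stood below the whole list in the 3 weaker classes and within counting error of it in class 4. In class 5 the interval of the regions, 35.6 to 54.3, held the value of the whole list. Vehicle peaks present in all 3 lists reached 14.4% (54 of 374) in class 5. By strength in the vehicle list there was no such rise. In 10 equal classes, weakest to strongest, the shares were 14.8%, 8.11%, 17.2%, 16.1%, 17.9%, 12.9%, 5.21%, 7.59%, 11.1% and 0%. Shares in classes 7 to 10 were thus at most 11.1%. In the strongest class 0 of 19 regions lay at a gene end, which allows a share of up to 17.6% by the exact interval. Vehicle peaks in the vehicle list alone had a gene-end share of at most 2.38% in each of the 10 classes. Peaks of all 3 lists had between 2.60% and 17.5% in the 9 weaker classes, a range like that of the regions. The regions stood above them in vehicle classes 1, 4, 5, 8 and 9, and below them in classes 2, 3, 6, 7 and 10. Class 10 held 507 of the 1443 peaks of all 3 lists, with 0.592% at a gene end.

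**Figure D3:**
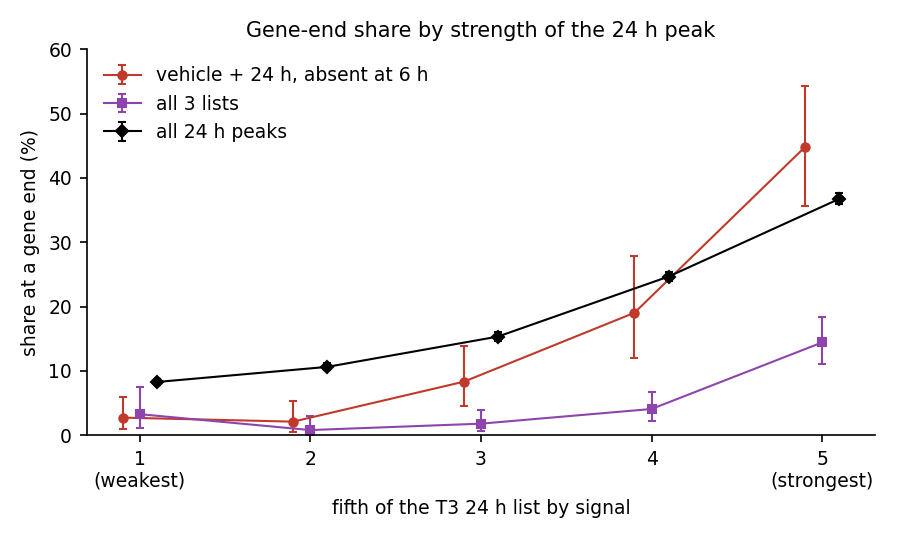
Share of peaks at a gene end, in percent, in 5 equal classes of the T3 24 h list from the weakest to the strongest signal. Red circles are the 783 regions, purple squares vehicle peaks present in all 3 lists and black diamonds all 24 h peaks; whiskers are exact 95% intervals. The regions run from 2.75% in class 1 to 44.8% in class 5, and the peaks of all 3 lists reach 14.4%.

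Both replicates located the peaks more closely at 24 h than in vehicle. Replicate summits lay a median of 95 bp (79 to 112) apart in the 24 h partners and 225 bp (191 to 252) apart in the vehicle peaks. For peaks present in all 3 lists the distances were 38 bp at 24 h and 53 bp in vehicle, and for the whole 24 h list 46 bp. Peaks in the vehicle list alone had 220 bp (210 to 231), so the vehicle distance of the regions was like theirs. At gene ends the distances of the regions were 48 bp (33 to 70) at 24 h and 243 bp (177 to 316) in vehicle. Gene-end peaks of all 3 lists had 51 bp (36 to 69) at 24 h and 227 bp (169 to 305) in vehicle, and all 24 h peaks at gene ends had 48 bp, so the gene-end distances of the regions lay near those of other gene-end peaks. The deposited score, a scaled IDR, had its maximum of 1000 in 47.4% of the regions at 24 h and in 19.4% in vehicle. Of peaks in the vehicle list alone, 15.2% had that score. For the regions at gene ends the share was 88.4% (84 of 95) at 24 h and 13.7% (13 of 95) in vehicle. For all 24 h peaks at gene ends it was 79.9%. Across regions, both replicate signals had a Spearman rho of 0.55 at 24 h and -0.30 in vehicle. Across peaks in the vehicle list alone it was -0.40. The lists had selected the peaks on both columns. Median widths were 986 bp at 24 h and 1356 bp in vehicle for the regions, 996 bp at 24 h and 1271 bp in vehicle for peaks of all 3 lists, and 696 bp for the whole 24 h list. Peak positions of the regions in both lists differed by a median of 209 bp.

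At gene starts the 24 h peak lay nearer the start than the vehicle peak did in most regions. Distances to a start are given for the regions alone, so this is not shown to be particular to them. At gene ends the vehicle and 24 h positions differed by a median of 319 bp (218 to 386) in the regions. In gene-end peaks of all 3 lists they differed by 284 bp (132 to 342). Strand was available for 84 of the 95 regions at gene ends: by the vehicle position, 76 lay at the start of a gene and 8 at its other end. Distances run to an annotated start of a gene assigned by the vehicle position, which need not be the start nearest the 24 h position. Among the 76, ZNF391 and BLVRA were far from the annotated start used for distances. It lay 13793 bp and 1335 bp from their vehicle positions, and 13575 bp and 1838 bp from their 24 h positions. At TMEM238 the start used lay 238 bp from the vehicle position and 1548 bp from the 24 h position. A start of RPL28 lay inside both peaks of that region. All of these are kept in the values below. The 24 h position was a median of 116.5 bp (82 to 148) from the annotated start and the vehicle position 318 bp (270 to 380). The 24 h position was the nearer in 59 of 76 regions, or 77.6% (66.6 to 86.4). It lay within 100 bp of the start in 48.7% at 24 h and in 10.5% in vehicle. The median 24 h percentile was 82.9 at starts. The 8 assigned to other ends were at SCCPDH, ETNK2, EGFR, ACP7, LOC105378947, NCL, ZBED2 and TAF11L5. The assignment holds for the vehicle position alone in TAF11L5, whose annotated start was 244 bp from the 24 h position and 1497 bp from the vehicle position, and in ZBED2, where these distances were 935 bp at 24 h and 1735 bp in vehicle. EGFR, the epidermal growth factor receptor gene, had percentiles of 24.4 at 24 h and 40.2 in vehicle there.

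**Figure D4:**
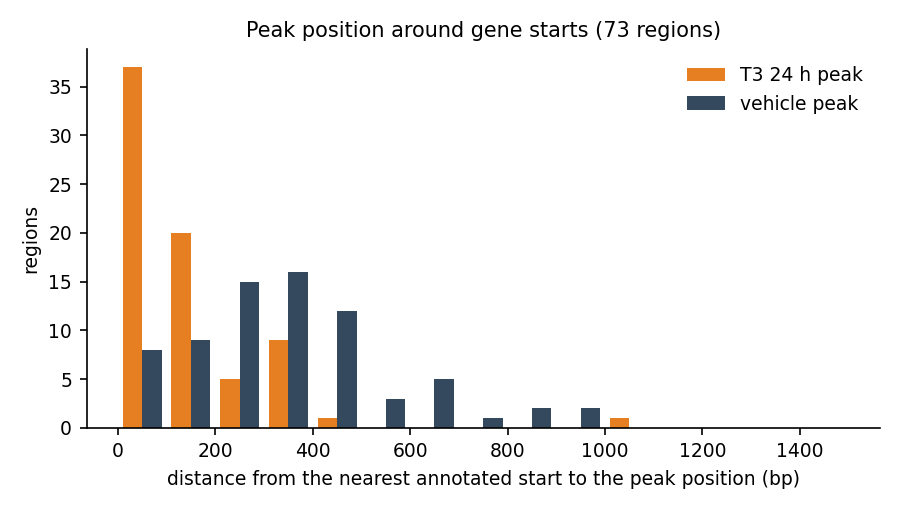
Number of regions by distance, in bp, from the nearest annotated start of a gene assigned by the vehicle position to the peak position. Bars are for the T3 24 h peak (orange) and the vehicle peak (dark blue) of the same 73 regions. The 3 regions not drawn, at ZNF391, BLVRA and TMEM238, were farther from that start, TMEM238 at 24 h only. The 24 h bars are highest in the first bin of 100 bp, with 37 regions, where the vehicle has 8.

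The named regions at gene ends are given by the role of their genes, and no role is claimed to be frequent. Among genes for mitochondrial proteins, IMMT, which builds the cristae junctions of the inner membrane, had replicate signals of 12.5 and 12.02 in the 24 h list (percentile 89.6) and of 6.99 and 6.34 in the vehicle list (percentile 85.3), at chr2:86194575-86196133. It stood highest of the 95 regions by vehicle signal. DNM1L, the GTPase of mitochondrial fission, had 14.6 and 18.3 at 24 h (percentile 97.9) and 3.14 and 5.91 in vehicle (percentile 24.9), at chr12:32678983-32679969. Its vehicle columns differed more than those of IMMT did. COQ10B, a coenzyme Q binding protein, had 15.3 and 19.9 at 24 h and 6.51 and 3.56 in vehicle. MAVS, the antiviral adaptor on mitochondria, was stronger by rank in vehicle, with percentile 54.2 at 24 h and 76.7 in vehicle. The divergent pair SKA3, of the kinetochore, and MRPL57, of the mitochondrial ribosome, shared 1 region with 16.6 and 15.9 at 24 h and 4.13 and 5.69 in vehicle. Chosen after their values were seen, SUCLA2 of the citric acid cycle, the ketone body enzyme gene OXCT1 and the carrier gene SLC25A13 stood at 24 h percentiles of 94.2, 82.2 and 82.7, and at vehicle percentiles of 58.7, 49.7 and 45.9.

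Genes of the centrosome, tubulin folding and vesicle or protein turnover follow. CEP120, required for centriole elongation, had 17.6 and 24.8 in the 24 h list, percentile 99.8 and the highest of the 95, and 3.21 and 6.11 in the vehicle list (percentile 31.4), at chr5:123422479-123423623. TBCA, a tubulin folding cofactor, had 13.6 and 17.7 at 24 h (percentile 97.0) and 4.87 and 4.43 in vehicle (percentile 30.7). TAX1BP1, an autophagy receptor, had 16.9 and 13.9 at 24 h and 5.76 and 3.80 in vehicle. All 3 were in the strongest 10% at 24 h and below the median in vehicle. RAB7A, the GTPase of late endosomes, had 8.88 and 12.1 at 24 h (percentile 83.0) and 3.53 and 5.73 in vehicle (percentile 29.9), and a second region lay inside its gene. RNF34, a ubiquitin ligase gene, had 11.3 and 13.6 at 24 h (percentile 90.1) and 7.45 and 5.36 in vehicle (percentile 83.0). SAYSD1 had percentile 95.9 at 24 h and 1.87 in vehicle, so it was near the bottom of the vehicle list.

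Of genes for RNA processing and transcription, ICE1, of the little elongation complex at small nuclear RNA genes, had 11.8 and 17.7 at 24 h (percentile 95.6) and 6.72 and 6.01 in vehicle (percentile 82.6), at chr5:5422019-5424139. It was high in both lists. SND1, a nuclease and coactivator, had 17.2 and 18.1 at 24 h (percentile 98.8) and 3.27 and 5.66 in vehicle (percentile 18.96), at chr7:127651387-127652926. PPIH, a cyclophilin of the spliceosome, had percentile 67.2 at 24 h and 81.8 in vehicle. The zinc finger genes ZNF286A, ZNF595 and ZNF391 stood at percentiles 99.2, 85.3 and 55.5 at 24 h and 69.7, 79.5 and 66.0 in vehicle.

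Metabolic and membrane genes lay between percentile 4.78 and 98.9 at 24 h. SLC46A3, a lysosomal transporter, had 15.6 and 19.9 in the 24 h list (percentile 98.9) and 5.36 and 4.48 in the vehicle list (percentile 47.1), at chr13:28718280-28719507. LDHB, a lactate dehydrogenase subunit, had 14.7 and 14.3 at 24 h (percentile 95.2) and 5.63 and 4.38 in vehicle (percentile 50.7). STARD4, a cholesterol transfer protein, had percentiles of 90.02 at 24 h and 77.0 in vehicle. BLVRA, which reduces biliverdin to bilirubin, had 3.83 and 4.34 at 24 h, near the bottom of that list at percentile 4.78, and 4.31 and 8.05 in vehicle, percentile 80.6. Its vehicle summits lay 1280 bp apart. TMEFF2 stood at 76.4 at 24 h and 74.8 in vehicle, and SCCPDH at 45.3 at 24 h and 70.8 in vehicle. The region shared by ZMYND12, CCDC30 and PPCS stood at 68.0 at 24 h and 80.9 in vehicle. FAM90A18 and FAM90A17 stood at 6.18 and 42.1 at 24 h and at 81.7 and 75.6 in vehicle; both belong to a family of near-identical copies, where placing reads is uncertain. The same holds for ZNF286A, USP17L10, TAF11L5, CT45A3, FOXD4L4 and GTF2H2C.

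**Figure D5:**
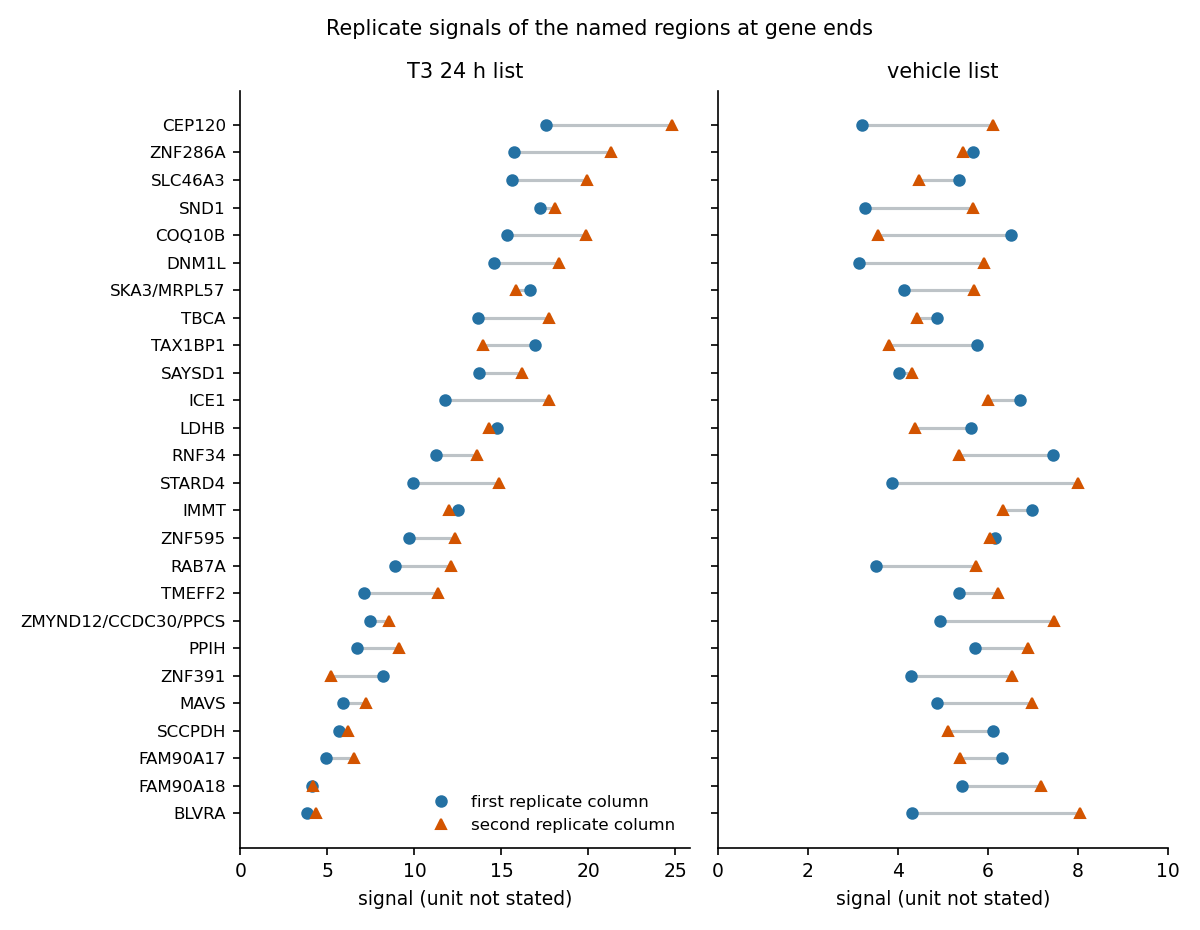
Signal of both replicates for the 26 named regions at gene ends, in the T3 24 h list (left) and the vehicle list (right), in the unstated unit of the deposited lists; circles are the first and triangles the second replicate column, and a line joins them. Regions are ordered by 24 h percentile, from CEP120 at the top (17.6 and 24.8 at 24 h) to BLVRA at the bottom (3.83 and 4.34), and the panels have separate axes because the lists are not comparable.

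Few genes of the pathways looked up had such a region, as was so of coding genes in general. Of 248 genes matched from 11 lists, 3 did: RAB7A of 27 housekeeping genes, IMMT of 24 genes of the mitochondrial inner membrane and respiration, and LDHB of 17 glycolysis genes. Over all protein-coding genes 109 of 19974 did, or 0.546%. At that share a list of 16 to 30 genes would mostly hold no such gene, so the absences below say nothing about the lists. There was none among 22 T3 response genes, 22 genes of hormone signalling, 16 thyroid differentiation genes or 29 SWI/SNF subunits. There was none among 20 AP-1 and immediate early genes, 25 cell cycle genes, 20 cytoskeleton and adhesion genes or 30 clustered protocadherins. A 24 h peak at an end was found in 24 of 24 mitochondrial, 23 of 29 SWI/SNF and 11 of 22 T3 response genes, against 60.8% of all coding genes. A vehicle peak at an end was found in 1.34% of all coding genes. In the lists, 3 protocadherin genes and 1 cytoskeleton gene had such a vehicle peak, none of them in a region described here. It was found in 0 genes of the lists for T3 response, hormone signalling, thyroid differentiation, SWI/SNF, AP-1 and cell cycle.

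The promoter letters were counted for 88 genes whose annotated start lay inside a region and its 24 h partner; the table of windows held 96 of the 109 genes at gene ends, and some starts of other transcripts entered. The CCAAT box was in 47.7% of these windows (42 of 88, 37.0 to 58.7), against 36.1% of 8048 windows with a 24 h peak but no vehicle or 6 h peak and 36.3% of all 15812 windows. The GC box was in 67.0% (56.2 to 76.7), against 74.1% and 58.5% in those sets, and CCGGAAG in 20.5% (12.6 to 30.4), against 19.97% and 14.2%. AGGTCA was in 15.9% (14 of 88, 8.98 to 25.3), against 8.71% and 11.7%. The interval for CCAAT began at 37.0, only just above both other values, and that for AGGTCA began above the first and below the second. The intervals count each window as separate. Windows of divergent pairs, such as H2AC13 with H2BC13, ZNF490 with ZNF791 and BIVM with POGLUT2, overlap and share letters. The intervals are thus too narrow, several motifs were counted, and no difference for CCAAT is claimed. The direct repeat of AGGTCA with 4 bases between, known as a thyroid hormone receptor element, was in 0 of the 88 and in 1 of all windows. The AP-1 site TGANTCA was in 6.82%, against 4.51% and 5.76%. The TATA box TATAAA was in 7.95%, against 5.22% and 9.64%, and the cAMP response element TGACGTCA in 5.68%, against 3.38% and 2.59%. Median GC content was 62.2%, against 66.3% and 62.7%. Each motif was searched on both strands; a match is a description of letters and not of binding.

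The 253 regions inside genes had a median percentile of 41.8 (34.1 to 50.2) at 24 h and 44.3 (38.2 to 49.9) in vehicle. The strongest in vehicle lay in RGPD2, a member of a family of duplicated genes, at chr2:87824890-87825316, with replicate signals of 9.31 and 11.3 at 24 h (percentile 82.1) and of 36.3 and 40.1 in vehicle (percentile 99.9). It stood alone, since the next, in PCBD2, had 11.9 and 11.1 at 24 h and 9.06 and 10.2 in vehicle. SNTG2, SLCO1B3 with its readthrough gene, and C3orf33 followed, at vehicle percentiles of 91.2, 91.0 and 90.2. By 24 h signal, a region in CEP128, a centriole gene, came first with 18.3 and 21.2 at 24 h (percentile 99.6) and 3.57 and 6.45 in vehicle (percentile 50.8). It lay at chr14:80941207-80942192, 14031 bp from a boundary of TSHR, the thyrotropin receptor gene. WDR35, of intraflagellar transport, PDK1, a kinase that restrains pyruvate dehydrogenase, TTC34 and GPAM, of glycerolipid synthesis, followed at 24 h percentiles of 98.9, 98.7, 98.5 and 98.3. Their vehicle percentiles were 10.9, 56.7, 44.6 and 17.1. The regions in CEP128 and GPAM held an annotated start of those genes, so they were inside genes only by the gene boundary. ADARB2 held 4 regions, and PTPRN2, RASA3, SHANK2 and SNTG2 held 3 each; all 5 genes also had 16 to 60 peaks at 24 h.

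Some regions away from gene ends lay at other annotated starts. An annotated start of a long noncoding RNA or of another transcript of a coding gene lay within 1 kb of 21 of the 688, 8 of them at a noncoding gene. Their median 24 h percentile was 81.6 (60.1 to 88.5), like that of gene ends. CEP128 and GPAM were among the 21. Named after their values were seen, FKBP5, the hormone receptor co-chaperone gene, stood at 84.5 at 24 h and 11.1 in vehicle. PCLAF, a PCNA-binding factor gene, stood at 88.5 at 24 h and 76.9 in vehicle. HDAC9, a histone deacetylase gene, stood at 60.2 at 24 h and 69.8 in vehicle.

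The 435 regions outside genes were weaker at 24 h, with a median percentile of 30.7 (26.9 to 34.1) there and 45.9 (41.7 to 52.1) in vehicle. Of these, 33.1% lay over 500 kb from any gene end, against 64.8% of the intergenic vehicle peaks present in all 3 lists, 76.0% of those shared with 6 h alone and 46.1% of those in vehicle alone. The 144 far regions had a median percentile of 20.2 at 24 h and 51.8 in vehicle. The strongest by 24 h signal, at chr9:80565580-80565915 and 838852 bp from TLE4, a corepressor gene, had 21.3 and 20.1 at 24 h and 7.32 and 6.56 in vehicle. Its replicate summits lay 3 bp apart at 24 h and 5 bp apart in vehicle, closer than most. Regions nearest to CTNND2, GLI3, POTEG and MALRD1 came next, at 24 h percentiles of 97.6, 97.6, 96.5 and 96.2. By vehicle signal, the strongest lay at chr22:10871476-10874188, with 3.77 and 6.02 at 24 h and 6.07 and 12.9 in vehicle, and at chr11:642284-642853, 1450 bp from DEAF1, with 12.8 and 10.7 at 24 h and 7.97 and 10.7 in vehicle. The region on chromosome 22 was 4656367 bp from the nearest coding gene end, at OR11H1. The regions nearest to LOC124903767, again OR11H1, and SLC9A3 completed the 5, at percentiles of 9.79, 66.9 and 46.5 at 24 h and of 93.9, 93.5 and 93.3 in vehicle.

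A few megabases held many of the regions, as they did of vehicle peaks in general. Windows of 1 Mb with 5 or more regions numbered 9 and held 101 of the 783, or 12.9% (10.6 to 15.5), with 0 at a gene end. The same windows held 960 of all 6811 vehicle peaks, or 14.1%, so the share of the regions was not above it. The windows of chromosome 1 starting at 122000001, 123000001 and 124000001 held 35, chromosome 20 from 26 to 29 Mb held 34, chromosome 13 from 16 to 18 Mb held 25 and the first megabase of chromosome 17 held 7. The regions in these windows had a median percentile of 21.8 at 24 h and 46.5 in vehicle. Such windows held many other vehicle peaks, for instance 193 vehicle peaks in the window of chromosome 1 that starts at 123000001, of which 98 were in all 3 lists. Whether repeats there affect how reads are placed was not tested. The remaining regions were scattered, with 544 windows holding at least 1 region and 420 exactly 1. By chromosome, the share of vehicle peaks that met the rule was lowest on chromosome 18 (13 of 244, 5.33%, 2.87 to 8.94) and highest on chromosome 8 (20 of 102, 19.6%, 12.4 to 28.6).

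Most regions lay well past the thresholds of the rule. The median overlap with the 24 h partner was 100% of the shorter peak, and 40.4% of the partners lay wholly inside the vehicle peak. The regions nearest the threshold had overlaps of 50.4%, 50.6% and 51.1% with 24 h, and the peaks just outside had 49.6%, 48.9% and 48.9%. A 6 h peak overlapped 7 regions below the threshold, by 25.7% to 47.9%, and the peaks just outside on that side had 51.3%, 55.9% and 57.0%. The nearest 6 h peak lay a median of 38734 bp (31690 to 44352) away, and 22.3% (19.5 to 25.4) of the regions had one within 10 kb, against 18.9% (17.7 to 20.2) of peaks in vehicle alone. Within 100 kb the regions had a median of 8 peaks of the 24 h list, their own partner included, against 4 around peaks in vehicle alone and 10 around peaks in all 3 lists. The regions had 794 partners in all, 11 regions having 2, and 9 partners were shared with a 6 h peak by the same rule.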

How the data were processed

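The authors deposited 1 ATAC-seq peak list per group, joining both replicates. Per the submitters' processing notes, the authors' tools included CASAVA 1.7, Trim Galore, Bowtie2, MACS2 and DiffBind, with the build hg38. Not given in the sources used here: settings, Tn5 shift, and the treatment of duplicates and repeats. The deposited lists have the 20-column IDR layout. The deposited score is a scaled IDR (540 to 1000), and the deposited −log10 of the IDR gives no IDR above 0.05. The deposited signal is the sum of both replicate columns. Its normalisation is not stated, so it was printed and ranked within a list, and its size was not compared between lists. Replicate columns carry no sample name.

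Overlaps were computed in Python 3.11.15 (pandas 2.3.3, numpy 2.4.6, scipy 1.17.1), tested on simulated data and checked against bedtools 2.31.1, which gave the same 783 regions. A peak's position was the mean of both replicate summits. Genes (19974 protein-coding) and promoter windows came from RefSeq, GRCh38.p14, the assembly of hg38. The window table covers 15812 of them, and no genome sequence was used. With 1 list per group and no replicated value per condition, no test between conditions was run. Intervals (exact Clopper-Pearson for shares, order statistics for medians) are at 95% and cover counting error only. Named at gene ends were the 15 regions strongest in vehicle, the 10 strongest at 24 h and those of listed genes. Elsewhere the 5 strongest inside and outside genes were named by vehicle signal as fixed, and by 24 h signal as added after the values were seen. The regions, gene lists and rules were chosen with earlier results of these data known. Alternatives changed the overlap rule, the IDR limit, the summit distance, the list length and the gene-end distance.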

Additional observations from a re-analysis of the deposited data

How the results depend on the processing

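The number of regions depended on the length of the lists and on peak quality, while any overlap of 1 base gave 822 and 50% of both peaks gave 618. It was 272 at an IDR of at most 0.01 and 301 with replicate summits within 100 bp in all lists. With the 3 lists brought to equal length it was 106 by summed signal, 105 by the first and 111 by the second replicate column. Of these sets, 162, 162, 74, 76 and 64 regions were among the 783. The gene-end share was 47.2%, 42.9% and 45.1% in the equal-length sets, 9.30% with the summit limit and 8.69% with gene ends within 500 bp, against 12.1%. The median vehicle percentile was 52.6 in the set by the first column and 51.3 with the summit limit, against 43.5. The median 24 h percentile was 32.7 at the stricter IDR and 51.3, 46.4 and 56.7 at equal lengths, against 38.5. Equal lengths keep only the strongest 24 h peaks by construction; the other causes were not tested.

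No paired analysis was possible because the replicate columns carry no numbers and the results come from no test. A replicate could not be left out, since each list was made from both; ranking by 1 column stands in for it. Read depth is unknown, which limits any statement on absence from a list.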
